A study of Mus musculus with 57 samples.

Results

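A set of 10 genes that hepatocytes around the central vein express under Wnt signalling was followed across the livers of 57 mice. They are Glul, Oat, Slc1a2, Rhbg, Tbx3, Tbx3os1, Lgr5, Axin2, Rnf43 and Znrf3. They were chosen by symbol, as the rows of the deposited table whose Ensembl identifiers map to these names, and all 10 were found among 54307 rows. The study was made to test and tune the estimation of cell types from bulk liver RNA. Each mouse was given a vehicle or 1 of 7 toxicants of the liver and was killed 24 h later.

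All groups were male wild-type C57BL/6JJcl mice, 6 weeks old before 1 week of acclimatisation, and fasted for 12 h before dosing. By gavage, 4 mice received alpha-naphthyl isothiocyanate (ANIT), 6 acetaminophen (APAP), 7 4,4'-methylene dianiline (MDA) and 5 thioacetamide (TAA), and 13 controls (Ctrl) received 0.5% methylcellulose. By intraperitoneal injection, 7 mice received carbon tetrachloride (CCl4), 4 galactosamine (GAL) and 2 controls (CIP) 0.9% saline. By tail vein injection, 7 mice received the lectin concanavalin A (ConA) and 2 controls (CIV) 0.9% saline. The labels name corn oil among the vehicles without saying for which compound, and no control group received it, so that its effect cannot be told apart from that of a compound given in it. RNA came from a piece of the left lateral lobe of the perfused liver.

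In the liver lobule, endothelial cells of the central vein secrete Wnt ligands, and R-spondins released there strengthen the signal. In the neighbouring hepatocytes beta-catenin then escapes degradation and, with TCF/LEF factors, drives genes of the pericentral zone. The set holds enzymes and carriers of glutamate, glutamine and ammonia metabolism (Glul, Oat, Slc1a2, Rhbg), the transcriptional repressor Tbx3 with its antisense transcript Tbx3os1, the R-spondin receptor Lgr5, and feedback inhibitors of the pathway (Axin2, Rnf43, Znrf3). Many toxicants are activated in this same zone.

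To show the DNA that lies directly before these genes, 3 promoters are printed, each from RefSeq on build GRCm38.p6 and covering the 250 bases before the start site. Table entries matched 6 of the 10 genes, with 7 promoters. The letters searched were CTTTGAT, a core of TCF/LEF sites, on both strands. They occurred in 1 of the 7 member promoters, that of Slc1a2, where capitals mark the reverse-strand match ATCAAAG at -207 to -201 from the start site. Of 32851 RefSeq promoters of this length, 3.21% held the letters. The Glul and Axin2 promoters, shown because these genes differed in opposite directions between CCl4 and ConA livers, held none, and no capitals are marked there.
Slc1a2, chr2:102706188-102706437, plus strand: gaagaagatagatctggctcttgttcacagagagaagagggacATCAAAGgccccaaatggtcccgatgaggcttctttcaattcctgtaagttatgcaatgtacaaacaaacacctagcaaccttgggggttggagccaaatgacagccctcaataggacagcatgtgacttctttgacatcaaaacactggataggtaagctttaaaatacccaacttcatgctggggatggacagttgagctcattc
Glul, chr1:153899679-153899928, plus strand: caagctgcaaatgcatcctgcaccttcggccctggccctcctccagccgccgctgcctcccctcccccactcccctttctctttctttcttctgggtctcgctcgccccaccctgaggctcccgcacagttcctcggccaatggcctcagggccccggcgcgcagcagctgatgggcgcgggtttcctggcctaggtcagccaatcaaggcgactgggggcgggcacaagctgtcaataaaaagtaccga
Axin2, chr11:108920099-108920348, plus strand: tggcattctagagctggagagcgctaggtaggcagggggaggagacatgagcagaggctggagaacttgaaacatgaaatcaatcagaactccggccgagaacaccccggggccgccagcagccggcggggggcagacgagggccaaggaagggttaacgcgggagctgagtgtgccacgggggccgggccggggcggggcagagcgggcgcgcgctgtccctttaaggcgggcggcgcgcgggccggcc

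Library totals ranged from 13826343 to 35075809 estimated counts (median 21532116), and mitochondrial genes took 5.11% to 39.3% of them, with the highest median in ConA livers (24.4%). Values are in CPM, the estimated count scaled by the library total and its TMM factor, and levels of different genes are not compared. The labels call all samples liver, and the albumin gene Alb was at 9110 CPM or more in each. Mice numbered 1 stood apart in several compound groups. Glul was 1024 CPM in APAP mouse 1 against 24.9 to 53.6 in the other 5, 437 in MDA mouse 1 against 30.3 to 85.1, and 322 in TAA mouse 1 against 101 to 146. In ANIT mouse 1 it was lowest, at 38.4 against 300 to 395, and GAL mouse 2 was highest of its group. The labels do not say what a number stands for. The saline groups did not differ from the gavage controls in any member: edgeR called 0 of 10 for CIP and 0 of 10 for CIV, with 0 and 0 at an unadjusted p under 0.05 and 0 and 0 by DESeq2. Over all genes tested, 0.0131% and 0.0263% were called. With 2 mice in each saline group, these tests have little power.

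Each compound was compared with the vehicle of its own route and with all 17 vehicle mice, and a gene was called at a Benjamini-Hochberg adjusted p under 0.05 in edgeR's quasi-likelihood test over all genes. Against the route vehicle, no member rose in any of the 7 compounds with TMM scaling. The number that fell was 5 of 10 with ANIT, 8 with APAP, 9 with MDA, 8 with TAA, 7 with CCl4, 3 with GAL and 5 with ConA. Of all genes tested, 14.2%, 14.6%, 16.4%, 24%, 15.6%, 15.7% and 17.3% fell in the same comparisons. Without GAL mouse 2, 7 were called with GAL: Glul, Oat, Slc1a2, Rhbg, Tbx3os1 and Lgr5 fell and Znrf3 rose. With GAL 1 fell without either of the CIP mice, and with ConA 2 fell without CIV mouse 7. The median log2 fold change of the 10 genes lay between -2.64 (APAP) and -1.08 (ANIT), while that of all genes lay between -0.01 and 0.10. Against all 17 vehicles, 6, 8, 9, 9, 9, 6 and 6 members fell in the same order of compounds, beside 14.5%, 15.3%, 17.1%, 24.5%, 27.2%, 27.5% and 33.7% of all genes. With CCl4 and GAL Znrf3 rose and with ConA Glul did, 1 of 10 in each case, beside 26.2%, 25.1% and 34.3% of genes that rose. No member rose with ANIT, APAP, MDA or TAA, beside 13.5%, 18.1%, 17.2% and 25.2% of genes. Without TMM factors, at the library total, the median of all genes was 0.83 with GAL, 0.52 with CCl4 and -0.61 with ConA. Under this scaling 3 members fell and 3 rose with GAL (11.5% and 54.6% of all genes), 7 fell and 1 rose with CCl4 (12.2% and 50.3%), and 9 fell and 0 rose with ConA (50.8% and 17%). Against the route vehicle, 1 then fell (Oat) and 2 rose (Axin2 and Znrf3) with GAL, beside 5.42% and 35.5% of all genes. Members with every treated mouse below every vehicle mouse numbered 4, 6, 2, 2, 5, 1 and 4, beside 4.2%, 3.75%, 2.48%, 8.76%, 9.2%, 13.9% and 15% of all genes. With GAL 1 lay wholly above, beside 10.7% of genes. These comparisons share their control mice and are not independent of each other. In a bulk sample, fewer cells of a type and less RNA per cell cannot be told apart.

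**Figure D1:**
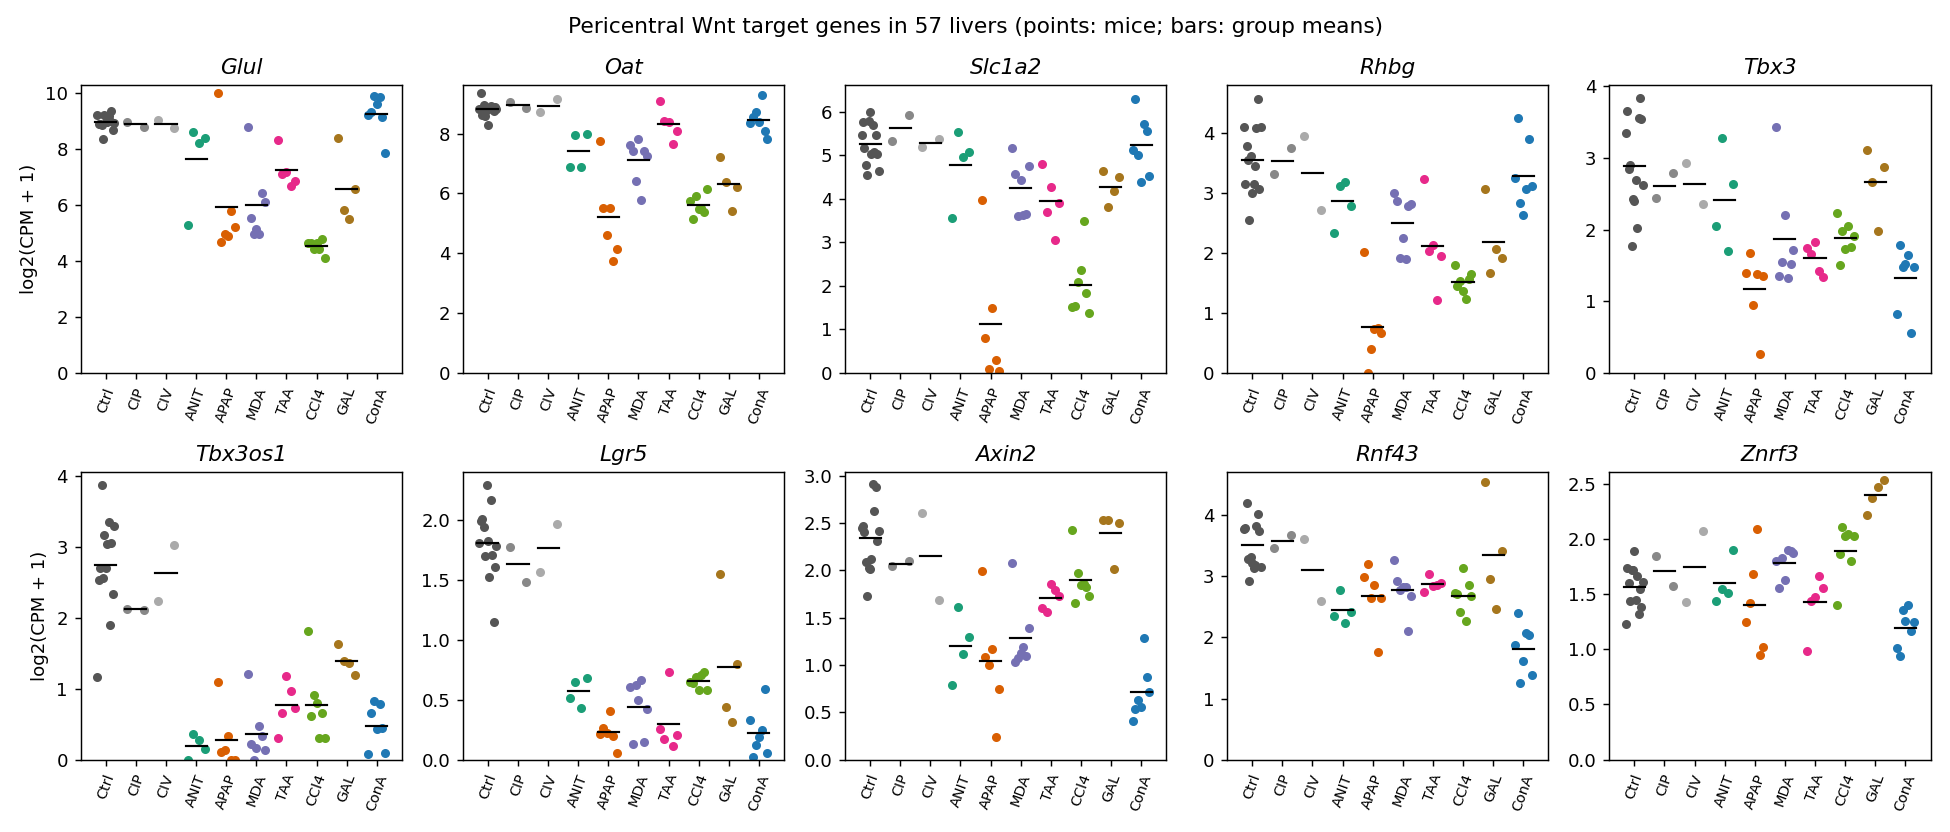
Level of each of the 10 genes in each mouse, as log2(CPM + 1) on the vertical axis, by group on the horizontal axis; points are mice and bars the means of the plotted values. The CCl4 mice lie at 16.4 to 26.4 CPM of Glul, below every vehicle mouse, while 6 of the 7 ConA mice lie within or above the vehicle range for Glul and all 7 lie below it for Axin2.

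Glul encodes glutamine synthetase, which captures ammonia in the last hepatocytes before the central vein. In the 17 vehicle livers it ranged from 327 to 652 CPM (median 497). With CCl4 all 7 livers fell to 16.4 to 26.4 CPM, 4.46% of the vehicle mean, a log2 fold change of -4.51 ± 0.14 (SE, adjusted p = 1.26e-18 against all vehicles). Every CCl4 liver lay below the lowest vehicle. With MDA the median was 45.6 CPM (30.3 to 437), and the change of -2.27 ± 0.46 against Ctrl (adjusted p = 0.00064) became -3.37 without mouse 1. TAA livers held 322, 138, 146, 101 and 116 CPM, all below the vehicles (-1.56 ± 0.24, adjusted p = 1.88e-05). With APAP 5 of 6 livers were at 24.9 to 53.6 CPM and mouse 1 at 1024, above every vehicle. The APAP comparison was therefore not called (-1.29 ± 0.66, adjusted p = 0.149) with mouse 1 and was called without it (-3.84, adjusted p = 2.22e-09). Against all vehicles the APAP change was called at the library total (-1.63, adjusted p = 0.0202) and not with TMM (adjusted p = 0.104).

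GAL livers had 334, 55.6, 44 and 94.4 CPM of Glul. Their change was called against all vehicles (-1.96 ± 0.35, adjusted p = 6.8e-05), was not called against the 2 CIP mice (adjusted p = 0.118), and was called there without mouse 2 (-2.86, adjusted p = 0.00234). For ANIT the values were 38.4, 395, 300 and 338 CPM. That difference was called against all vehicles (-0.89 ± 0.31, adjusted p = 0.0381) but not without mouse 3 (adjusted p = 0.0811). Against Ctrl it was not called with all 4 mice (adjusted p = 0.0605) and was called without mouse 1 (-0.55, adjusted p = 0.0191) or without mouse 2 (-1.16, adjusted p = 0.0454). ConA livers held 232 to 954 CPM (median 642). Against all vehicles they were higher by 0.52 ± 0.16 (adjusted p = 0.00611). Scaled to the library total instead, the ConA difference was -0.16 (adjusted p = 0.428) while the median of all genes stood at -0.61, so that Glul lay 0.45 above that median. Among mice numbered above 4 the difference was not called (0.29, adjusted p = 0.281). In 1 fit over all 57 mice neither the ConA difference (0.46, adjusted p = 0.423) nor the ANIT one (-0.88, adjusted p = 0.349) was called. In order of group means, CCl4 was lowest and its range did not meet that of MDA, the next, though the lowest APAP liver (24.9 CPM) lay within it. MDA, GAL, TAA, APAP and ANIT followed with overlapping ranges, and each neighbouring pair of CIP, CIV, Ctrl and ConA overlapped as well. The pseudogene Glns-ps1, a near copy that could share reads, averaged 0.543 CPM in vehicle livers.

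Oat, ornithine aminotransferase, links ornithine to glutamate. Vehicle livers ranged from 312 to 650 CPM. It fell with 6 of 7 compounds against all vehicles, most with CCl4 (34 to 69.7 CPM, median 44.6, -3.26 ± 0.14, adjusted p = 1.11e-15). APAP livers had 12.3 to 213 CPM (median 34.1, -2.93 ± 0.44, adjusted p = 1.51e-05, and -4.02 without mouse 1). GAL livers held 150, 82.2, 41.4 and 73 CPM (-2.46 ± 0.24, adjusted p = 1.35e-08). Against the 2 CIP mice the GAL call was lost without CIP mouse 7 (adjusted p = 0.061). All mice of CCl4, APAP, GAL, MDA (54.1 to 225) and ANIT (117 to 253) lay below every vehicle mouse. TAA livers were nearer the controls, at 544, 344, 332, 202 and 268 CPM. The TAA change (-0.41, adjusted p = 0.0421) was not called against Ctrl alone (adjusted p = 0.0991) and was lost without any 1 of mice 3, 6, 7 and 8 (adjusted p from 0.0896 to 0.177) and in 1 fit over all 57 mice (adjusted p = 0.338). Against Ctrl it was called without mouse 1 (-0.63, adjusted p = 0.00215). With ConA the range of 223 to 622 CPM overlapped the controls. The ConA difference (-0.23, adjusted p = 0.156) was not called with all mice. It was called without ConA mouse 8 (-0.42, adjusted p = 0.00526) and at the library total (-0.87, adjusted p = 4.65e-05), -0.26 from the median of all genes.

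Slc1a2, the glutamate transporter GLT-1 of cell membranes, is in the liver a pericentral carrier. Vehicle livers held 22.3 to 63.1 CPM. The 6 APAP livers had 14.6, 0.752, 0.0606, 1.83, 0.229 and 0.0288 CPM, in order of mouse number, so that mouse 1 was highest and 3 livers were under 0.3. The change was -3.82 ± 0.78 (adjusted p = 0.000517 against all vehicles) and -6.07 without mouse 1. CCl4 livers had 1.59 to 10.2 CPM (median 2.56, -3.48 ± 0.34, adjusted p = 2.51e-09). Both groups lay wholly below the vehicles. MDA (-1.02 ± 0.24), TAA (-1.31 ± 0.27) and GAL (-1.12 ± 0.25) livers were also lower, with adjusted p of 0.00155, 0.000266 and 0.000739 and with ranges that overlapped the vehicles. In 1 fit over all 57 mice these 3 were not called (-1.02, -1.33 and -1.06, adjusted p = 0.108, 0.0508 and 0.151). For GAL the call was lost under library-total scaling (-0.28, adjusted p = 0.346). Against the CIP mice the GAL call was lost without CIP mouse 8 (adjusted p = 0.111). ANIT (10.8 to 45.4 CPM) and ConA (19.8 to 77.9 CPM) were not called. ConA, at 0.11 with TMM scaling, was at -0.57 at the library total and called there (adjusted p = 0.0332), 0.04 above the median of all genes.

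Rhbg, an ammonium channel of the pericentral membrane, followed Slc1a2 closely. Over the 7 log2 fold changes against all vehicles, the pair differed by a root mean square of 0.42, the least of all pairs of members. Vehicle livers held 4.84 to 22.7 CPM. Again APAP was lowest, at 3.03, 0, 0.317, 0.668, 0.671 and 0.591 CPM (-3.74 ± 0.56, adjusted p = 1.49e-05, and -4.60 without mouse 1), and CCl4 followed at 1.34 to 2.47 CPM (-2.61 ± 0.27, adjusted p = 7.23e-09). MDA, TAA and GAL livers fell by 1.18, 1.52 and 1.58 on the log2 scale against all vehicles, with adjusted p of 0.00144, 0.00139 and 0.00113. The GAL change was not called under library-total scaling (-0.72, adjusted p = 0.0998), and against CIP it was not called with all mice (adjusted p = 0.0642) and was called without GAL mouse 2 (-1.96, adjusted p = 0.003). ANIT (4.04 to 8.09 CPM) was not called, nor was ConA, whose 7 livers held 5.16 to 18 CPM. At the library total both were called lower, ANIT at -1.03 (adjusted p = 0.0346) and ConA at -0.81 (adjusted p = 0.0155), which were -0.77 and -0.20 from the median of all genes.

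**Figure D2:**
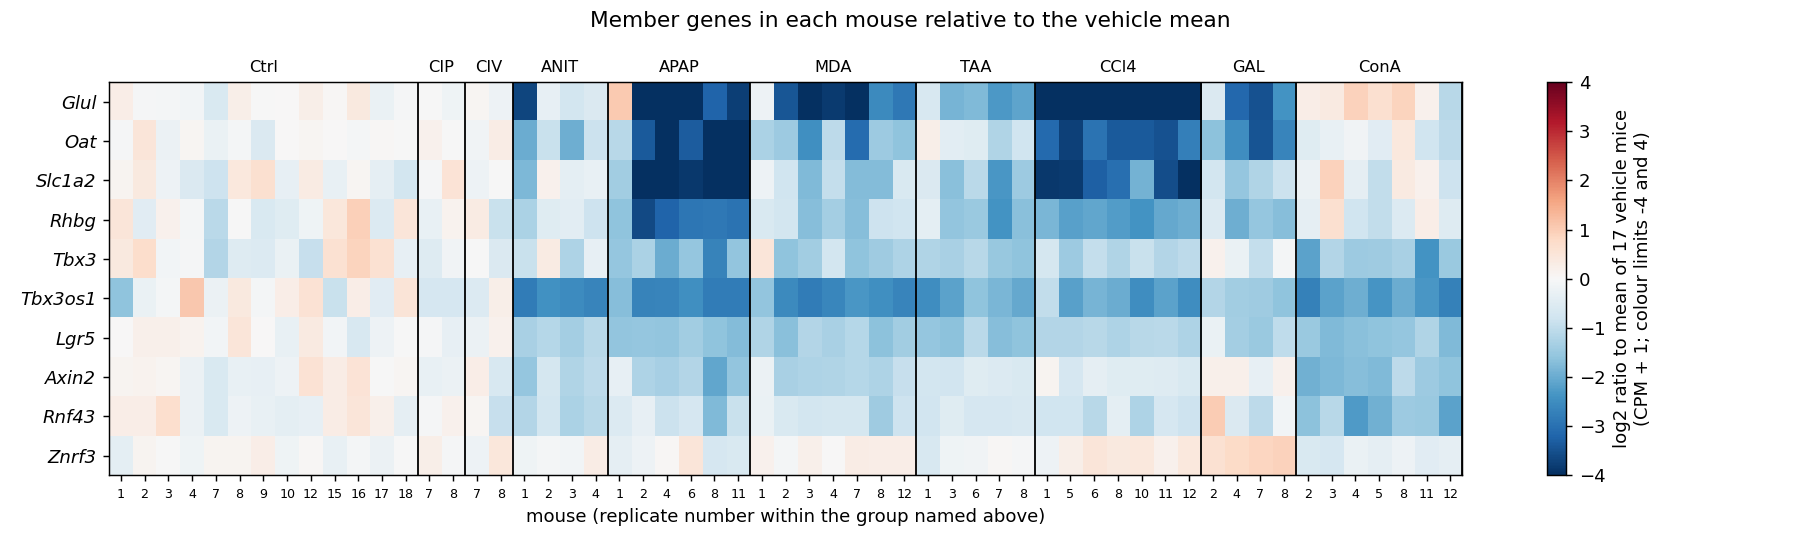
Log2 ratio of each gene in each mouse to the mean of the 17 vehicle mice, computed on CPM + 1, with mice in columns and genes in rows; blue is below and red above the vehicle mean, and colours stop at -4 and 4. APAP mouse 1 is above the vehicle mean for Glul while the other 5 APAP mice are far below it, and in the 7 ConA columns Axin2 lies at -1.92 to -1.05 and Tbx3os1 at -2.71 to -1.97, while Slc1a2 lies at -0.99 to 0.93.

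Tbx3 codes for a T-box repressor that marks pericentral hepatocytes. Its vehicle values were wide, 2.41 to 13.3 CPM, and among gavage controls those numbered 7 to 12 averaged 3.9 ± 1.19 CPM (SD, n = 5) against 8.34 ± 2.52 (n = 4) in numbers 1 to 4 and 9.96 ± 3.42 (n = 4) in numbers 15 to 18. APAP livers held 0.201 to 2.19 CPM, all below the vehicles (-2.28 ± 0.40, adjusted p = 0.000116), while ConA livers, at 0.467 to 2.45 CPM, met the lowest vehicles (-1.93 ± 0.34, adjusted p = 1.95e-05). The ConA call against the 2 CIV mice (adjusted p = 0.0232) was lost without CIV mouse 7 (adjusted p = 0.205). TAA livers had 2.36, 2.14, 2.55, 1.67 and 1.52 CPM (-1.66 ± 0.34, adjusted p = 0.000326). CCl4 livers had 1.83 to 3.68 CPM (-1.32 ± 0.28, adjusted p = 0.000284), but the CCl4 call against CIP was lost without CIP mouse 7 or 8 (adjusted p = 0.0532 and 0.216), under library-total scaling (-0.45, adjusted p = 0.181) and in 1 fit over all 57 mice (adjusted p = 0.264). In MDA livers 6 values lay between 1.49 and 3.62 CPM and mouse 1 at 9.8. The MDA call (-1.15 ± 0.40, adjusted p = 0.0299 against Ctrl) was lost without any 1 of mice 2, 3, 7, 8 and 12 (adjusted p from 0.0589 to 0.0667), whereas the change was -1.75 without mouse 1. ANIT and GAL were not called.

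Tbx3os1, a noncoding transcript, fell with all 7 compounds against all vehicles. It overlaps an exon of Tbx3 on the opposite strand in GENCODE M21, and as the use of strand in counting is not given in the sources used here, reads in that overlap cannot be told apart. Vehicle livers held 1.25 to 13.6 CPM. The 4 ANIT livers had 0, 0.28, 0.209 and 0.108 CPM, which rest on 0 to 5.55 estimated counts (-5.18 ± 0.65, adjusted p = 4.77e-06, and -5.80 without mouse 2). APAP, MDA and ConA livers had medians of 0.0897, 0.171 and 0.368 CPM. Their changes were -4.74 ± 0.70, -4.17 ± 0.55 and -3.75 ± 0.48, and those of APAP and MDA were -6.01 and -5.01 without mouse 1. TAA (-2.92), CCl4 (-2.90, and -3.51 without CCl4 mouse 1) and GAL (-1.88) livers were lower by less. Against 2 saline mice the calls were less firm. The CCl4 change was not called with all mice (adjusted p = 0.0526) and was without CCl4 mouse 1 (-2.61, adjusted p = 0.0031). The GAL call (adjusted p = 0.0375) was lost without any 1 of GAL mice 4, 7 and 8 or of both CIP mice (adjusted p from 0.0802 to 0.161), and the ConA call was lost without CIV mouse 8 (adjusted p = 0.0515). Tbx3 and Tbx3os1 differed by a root mean square of 2.62 over the 7 compounds. Over all pairs of members the least was 0.42 and the greatest 3.85.

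Lgr5 encodes a receptor for R-spondins. It too fell with all 7 compounds against all vehicles. Vehicle livers held 1.22 to 3.88 CPM. Values reached 0.0407 to 0.326 CPM with APAP (-3.82 ± 0.31, adjusted p = 5.56e-09), 0.0159 to 0.504 with ConA (-3.79 ± 0.37, adjusted p = 1.8e-09, and -4.42 without mouse 11) and 0.0795 to 0.663 with TAA (-3.23 ± 0.38, adjusted p = 2.06e-07, and -4.09 without mouse 6). MDA (0.0941 to 0.589, -2.69 ± 0.28), ANIT (0.349 to 0.605, -2.33 ± 0.27) and CCl4 (0.496 to 0.664, -2.12 ± 0.19) livers were also wholly below the vehicles. In ConA livers these levels rest on 0.153 to 5.64 estimated counts per library. GAL was the exception, with 1.93, 0.354, 0.24 and 0.736 CPM: mouse 2 lay within the vehicle range, the change was -1.67 ± 0.38 (adjusted p = 0.00088, and -2.48 without mouse 2), and it was not called under library-total scaling (-0.78, adjusted p = 0.0767). Against CIP it was not called with all mice (adjusted p = 0.218) and was called without mouse 2 (-2.28, adjusted p = 0.0217).

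Axin2 is a scaffold of the beta-catenin destruction complex whose transcription is a common readout of Wnt signalling. Vehicle livers held 2.23 to 6.51 CPM. The 7 ConA livers were lowest, at 0.324 to 1.43 CPM (median 0.542), all below every vehicle (-2.45 ± 0.27, adjusted p = 1.2e-08). Against the CIV mice the change was -2.38 (adjusted p = 0.00498) and it was not called without CIV mouse 7 (-1.62, adjusted p = 0.106). APAP livers had 0.185 to 2.97 CPM (-1.75 ± 0.35), ANIT livers 0.725, 2.06, 1.17 and 1.45 (-1.55 ± 0.30) and MDA livers 1.05 to 3.22 (-1.40 ± 0.24), all called. TAA livers had 1.95 to 2.61 CPM (-0.77 ± 0.22, adjusted p = 0.00511). CCl4 livers, in contrast with their Glul, kept 2.14 to 4.39 CPM, 69.3% of the vehicle mean. That change of -0.56 (adjusted p = 0.0174) was not called against CIP, was -0.05 under library-total scaling (adjusted p = 0.835) and was lost without CCl4 mouse 5 (adjusted p = 0.0536) and in 1 fit over all 57 mice (adjusted p = 0.105). GAL livers held 4.78, 4.78, 3.03 and 4.66 CPM, within the vehicle range, and were not called (0.07). At the library total they were called higher (0.90, adjusted p = 0.00392), 0.06 above the median of all genes.

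Rnf43 and Znrf3 are membrane ubiquitin ligases that remove Wnt receptors, an action that R-spondins block. Rnf43 resembled Axin2, with a root mean square difference of 0.50 over the 7 compounds. From 5.02 to 17.3 CPM in vehicles, it went to 1.4 to 4.29 CPM in ConA livers, all lower than any vehicle (-1.91 ± 0.24, adjusted p = 1.34e-07). Against CIV the ConA call was lost without CIV mouse 7 (-0.85, adjusted p = 0.296). Falls with ANIT, APAP, MDA, TAA and CCl4 against all vehicles lay between -1.20 and -0.68. The CCl4 fall was not called under library-total scaling (-0.41, adjusted p = 0.0745), nor against CIP without CIP mouse 8 (adjusted p = 0.0992) or in 1 fit over all 57 mice (adjusted p = 0.0513). GAL livers ranged from 4.54 to 22.4 CPM without a call (0.01). Mouse 2 held the 22.4 CPM and the other 3 held 4.54 to 9.62, and without mouse 2 the change was -0.56 (adjusted p = 0.115). At the library total GAL livers were called higher (0.89, adjusted p = 0.0137), 0.05 above the median of all genes, but not without mouse 2 (0.19, adjusted p = 0.589).

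Znrf3 had the fewest calls of the 10 genes, 3 against all vehicles. Vehicle livers held 1.35 to 3.2 CPM. The 4 GAL livers held 3.65, 4.18, 4.53 and 4.77 CPM, all above every vehicle mouse (1.02 ± 0.17, adjusted p = 2.65e-05). Against CIP alone the GAL rise was 0.88 (adjusted p = 0.0513), and it was called there without GAL mouse 2 (0.96, adjusted p = 0.0274), by DESeq2 and by limma. CCl4 livers, at 1.64 to 3.3 CPM, were higher by 0.39 (adjusted p = 0.0316), a call lost without any 1 of mice 6, 8, 10 and 12 (adjusted p from 0.0509 to 0.0652). ConA livers, at 0.922 to 1.64 CPM, were lower by 0.54 ± 0.17 (adjusted p = 0.00615). Znrf3 was not called with any gavage compound.

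**Figure D3:**
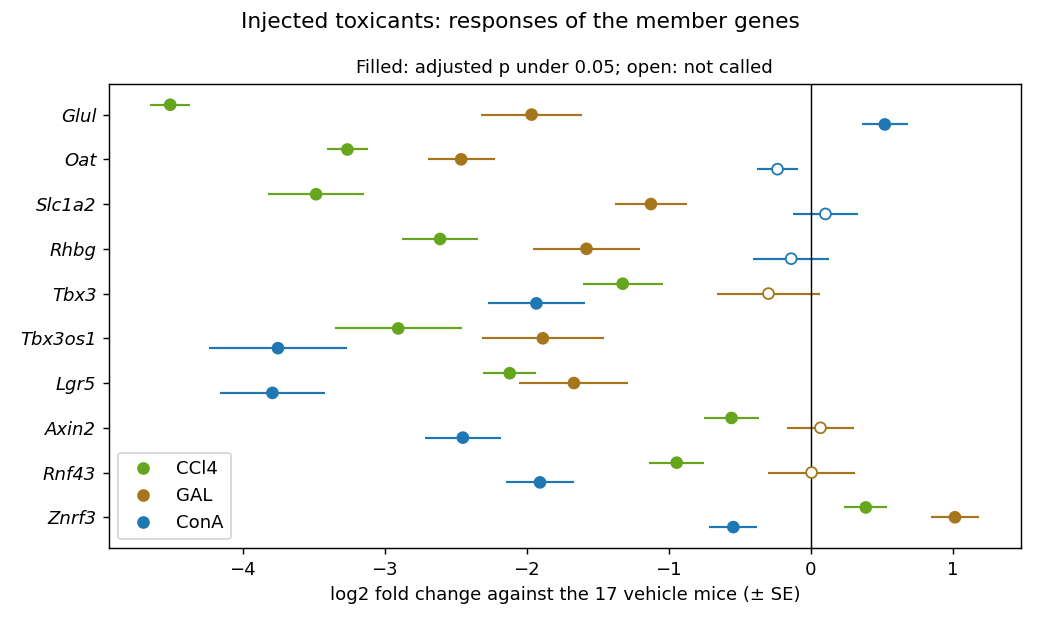
Log2 fold change (horizontal axis, with SE bars) of each gene against the 17 vehicle mice for the 3 injected toxicants; filled points have an adjusted p under 0.05. CCl4 lies far left for Glul (-4.51), and at -0.56 for Axin2 and 0.39 for Znrf3, all called. ConA lies at 0.52 for Glul, called, and at -0.23, 0.11 and -0.14 for Oat, Slc1a2 and Rhbg, not called. It lies left for Tbx3 to Rnf43 and at -0.54 for Znrf3, all called. Under library-total scaling Glul, Oat, Slc1a2 and Rhbg with ConA were at -0.16, -0.87, -0.57 and -0.81. The last 3 were called, with the median of all genes at -0.61.

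ConA and CCl4 livers were compared directly in 1 fit over all 10 groups, a comparison chosen after the values were seen. ConA livers exceeded CCl4 livers in Glul (log2 difference 4.91 ± 0.70, adjusted p = 7.5e-08), Oat (2.90 ± 0.39), Slc1a2 (3.46 ± 0.61) and Rhbg (2.34 ± 0.45). They were lower in Axin2 (-2.03 ± 0.34, adjusted p = 1.77e-06), Lgr5 (-1.78 ± 0.48), Rnf43 (-1.09 ± 0.27) and Znrf3 (-1.06 ± 0.21). All 8 were called, beside 49.4% of all genes, and Tbx3 and Tbx3os1 were not. At the library total, where the median difference of all genes was -1.13, the first 4 differences were 3.83, 1.85, 2.34 and 1.29, still called, and all 6 other members were called lower. Under that scaling 12236 of 18781 genes were called in either direction. With each compound first set against its own saline group of 2 mice, the difference between the changes was called for 4 members beside 16.8% of genes: Glul (4.87 ± 1.39, adjusted p = 0.0116), Oat (2.90 ± 0.79, adjusted p = 0.00818), Slc1a2 (3.85 ± 1.25, adjusted p = 0.0272) and Axin2 (-2.22 ± 0.68, adjusted p = 0.0193). These 4 calls rest on single saline mice: none of them held without CIV mouse 7 (adjusted p from 0.0668 to 0.193). Glul and Slc1a2 were also lost without CIV mouse 8, Slc1a2 and Axin2 without CIP mouse 8, and Axin2 without CIP mouse 7. The same test of ConA less GAL was called for 3, Axin2 (-2.85 ± 0.71), Rnf43 (-1.62 ± 0.58) and Znrf3 (-1.78 ± 0.45), beside 16.8% of genes. The Rnf43 call (adjusted p = 0.0467) was lost without GAL mouse 2 (-0.996, adjusted p = 0.197) and without several other single mice. Without CIV mouse 7 the Axin2 call was lost as well (adjusted p = 0.0544), and Znrf3 was lost without CIP mouse 8 (adjusted p = 0.0632) or CIV mouse 8 (adjusted p = 0.109). Directly, ConA livers differed from GAL livers in 9 of 10 members, lower in 6 and higher in Glul, Oat and Rhbg, beside 44.1% of genes. At the library total, with the median difference of all genes at -1.34, the same 6 were called lower, while Glul (0.91, adjusted p = 0.232), Oat (0.72, adjusted p = 0.096) and Rhbg (-0.09, adjusted p = 0.897) were not called. There 12308 of 18781 genes were called in either direction. With TMM the Rhbg call (1.30, adjusted p = 0.0386) was lost without any 1 of GAL mice 4, 7 and 8 and ConA mice 3 and 11, Glul without GAL mouse 7 (adjusted p = 0.0514), and Tbx3os1 without GAL mouse 2 or ConA mouse 2 or 12.

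CCl4 and GAL shared route and control. CCl4 livers were lower than GAL livers in 8 of 10 members, beside 20.3% of genes lower. The largest differences were in Glul (-2.60 ± 0.44, adjusted p = 0.000623) and Slc1a2 (-2.42 ± 0.46, adjusted p = 0.00146), and that of Glul was -1.60 without GAL mouse 2. The calls of Rnf43 (-1.01, adjusted p = 0.0346) and Oat (-0.87, adjusted p = 0.0265) were lost without GAL mouse 2 (adjusted p = 0.202 and 0.121) and without some other single mice. These were CCl4 mouse 6 or 10 or GAL mouse 8 for Rnf43 (adjusted p from 0.0531 to 0.055) and GAL mouse 4 for Oat (adjusted p = 0.0566). Axin2 (-0.69, adjusted p = 0.018) was lost without GAL mouse 4 (adjusted p = 0.0638).

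Among the 4 gavage compounds, any difference was called for Oat (adjusted p = 0.0137), Slc1a2 (0.0483) and Rhbg (0.0133), 3 of 10 beside 29.5% of genes. All 6 pairs of gavage compounds were compared. APAP livers were lower than ANIT livers in Slc1a2 (3.43 ± 0.96), Rhbg (2.94 ± 0.68) and Tbx3 (1.82 ± 0.55, log2 ANIT over APAP), beside 13.2% of genes called, and lower than MDA livers in Slc1a2 (-2.83 ± 0.88) and Rhbg (-2.55 ± 0.63), beside 13.1%. Against TAA livers they were lower in Oat (-2.54 ± 0.58) and Rhbg (-2.20 ± 0.65), beside 5.98%. Without APAP mouse 1 these differences grew, to 5.65 and 3.804 for Slc1a2 and Rhbg against ANIT, -5.05 and -3.41 against MDA, and -3.585 and -3.06 for Oat and Rhbg against TAA. Several of these calls were lost without another single mouse. For Slc1a2 the ANIT call was lost without ANIT mouse 2 (adjusted p = 0.0682) and the MDA call without any APAP mouse but mouse 1 or without MDA mouse 1, 2, 4 or 12 (adjusted p from 0.0536 to 0.068). For Tbx3 the call was lost without ANIT mouse 2 or 4 or APAP mouse 4 or 11 (adjusted p from 0.0517 to 0.162) and under library-total scaling (1.47, adjusted p = 0.0734). For Rhbg against TAA it was lost without APAP mouse 4, 6, 8 or 11 or TAA mouse 1, 3, 6 or 8 (adjusted p from 0.0607 to 0.13). Between ANIT and MDA, ANIT and TAA, and MDA and TAA edgeR called 0 members, beside 0%, 21.6% and 24.3% of genes. At an unadjusted p under 0.05 there were 0, 1 and 1 members, and DESeq2 called 0, 0 and 0. The labels give a dose volume of 10 µL/kg for all groups and no amount of compound, so whether doses were matched is not known.

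Cyp2e1, a pericentral cytochrome that activates several of these toxicants and is no member, was also apart in 4 of the 5 mice named above for Glul. It was 2624 CPM in APAP mouse 1 against 20.7 to 1128 in the other 5, 4599 in MDA mouse 1 against 845 to 1883, 4005 in TAA mouse 1 against 1060 to 1900, and 1307 in ANIT mouse 1 against 3452 to 4546. In GAL mouse 2 it was 1748 CPM, within the 1635 to 1943 of the other 3.

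The Wnt ligands of the central vein were measured in the same libraries at low levels. Wnt2 ranged from 1.12 to 2.61 CPM in vehicle livers and from 0.0735 to 0.261 in the 7 ConA livers, which lay wholly below (-3.17 ± 0.24, adjusted p = 1.85e-11). TAA livers had 0.465, 0.898, 0.266, 0.425 and 0.287 CPM, also wholly below (-1.99 ± 0.28, adjusted p = 2.43e-06). Wnt2 also fell with APAP (-1.29), MDA (-0.72), ANIT (-0.61) and CCl4 (-0.66) against all vehicles and was not called with GAL. Changes of these and other genes outside the set are given with TMM scaling only, and the alternatives were not run for them. At the library total the median of all genes was 0.52 with CCl4. Wnt9b ranged from 0.153 to 1.1 CPM in vehicles, and fell with ConA (0 to 0.0797 CPM, -4.03 ± 0.59), TAA (-2.05), CCl4 (-1.18) and GAL (-1.02). Rspo3, which encodes R-spondin 3, rose instead with ConA (1.89 to 4.74 CPM against 0.514 to 1.94, 1.84 ± 0.23, adjusted p = 1.07e-07) and with TAA (0.99 ± 0.26, adjusted p = 0.00272). Of the other listed Wnt ligands, Wnt11 rose with ConA against CIV (4.07 ± 1.22, adjusted p = 0.0265, mean 0.646 CPM against 0.0265). Wnt5a rose with CCl4 against CIP (1.98 ± 0.49, adjusted p = 0.0121). The 10 listed ligands, R-spondins and secretion genes summed to 9.82 to 17.3 CPM with ConA. The sums were 7.48 to 10.5 with CCl4 and 7.97 to 11.8 in vehicles.

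Summed levels of 5 or 6 markers of each of several cell types differed in the same livers. Sinusoidal endothelial markers were at 55.9 to 107 CPM with ConA and 77 to 106 with CCl4, wholly below the 116 to 203 of vehicles. Of these 6, 5 fell and 1 rose with ConA, 5 fell with CCl4, and 4 fell and 1 rose with TAA (92.9 to 137 CPM). The Kupffer cell sum was 44.4 to 79.1 CPM with ConA against 208 to 604, and all 6 fell. Of 6 hepatocyte markers 2 fell and 2 rose with ConA, with a sum of 37761 to 82970 CPM against 51313 to 110107. Neutrophil markers summed to 126 to 287 CPM with ConA and 154 to 789.9 with TAA against 0.695 to 50.6 in vehicles, where 1 of the 6 was at 0. All 3 that were tested with ConA and 6 of 6 with TAA rose. Cholangiocyte markers summed to 95.6 to 209.6 CPM with ConA against 23.7 to 107, and 5 of 6 rose. Stellate cell markers were at 48.8 to 201 CPM with MDA against 149 to 332, and 5 of 6 fell. Monocyte markers lay wholly above the vehicles with GAL (135 to 237 CPM against 27.7 to 109). B cell markers lay wholly below with ANIT (1.19 to 3.56 CPM) and MDA (0.863 to 2.65) and wholly above with TAA (11.6 to 20.3), against 4.66 to 11.3. For monocytes and B cells only the sums are given, which 1 abundant marker can dominate. Of all genes, 33.7% fell and 34.3% rose with ConA, 24.5% and 25.2% with TAA, 27.2% fell with CCl4 and 17.1% with MDA, and the hepatocyte counts with ConA are near those shares. The part of these cells in the member results was not tested.

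**Figure D4:**
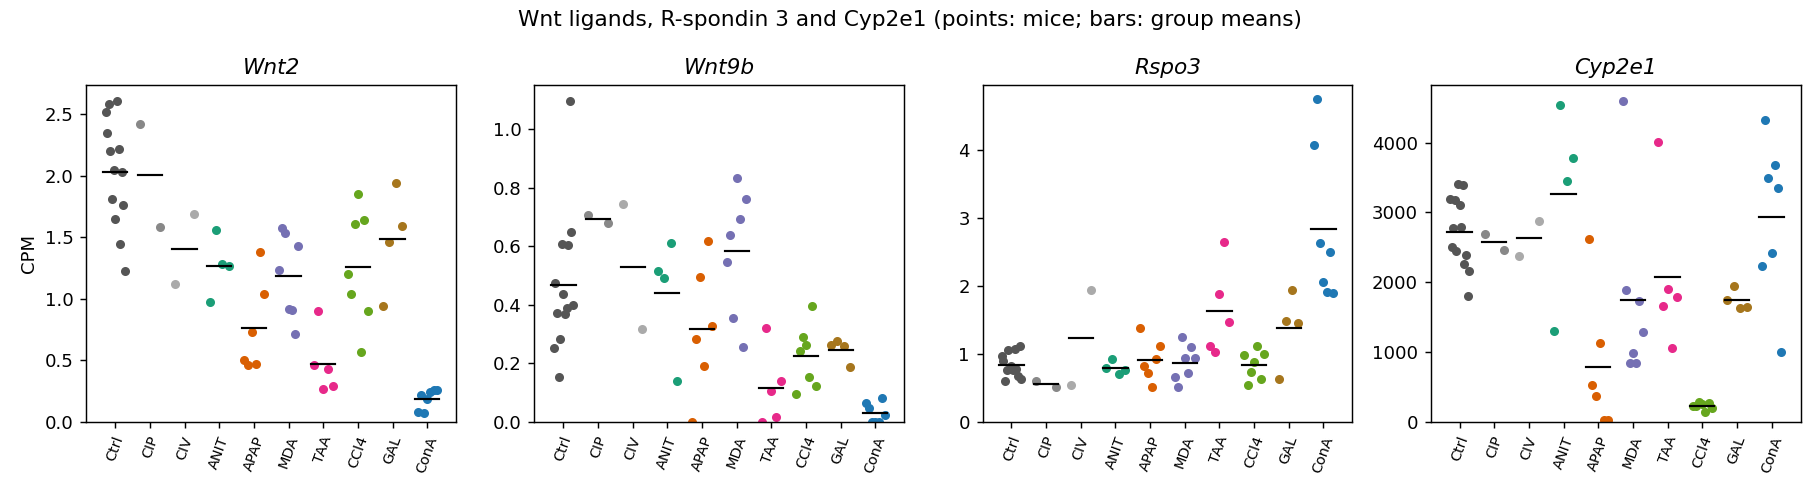
Levels in CPM (vertical axes, starting at 0) of Wnt2, Wnt9b, Rspo3 and Cyp2e1 in each mouse by group; points are mice and bars group means. The ConA group has the lowest mean for Wnt2 and Wnt9b and the highest for Rspo3, and the CCl4 mice lie at 141 to 285 CPM of Cyp2e1.

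Of 10 other pericentral genes, 9 fell and 1 rose with CCl4 against all vehicles, and 8 fell and 0 rose with ConA and with GAL (medians -1.43, -2.09 and -2.10). The number that fell was 4 with ANIT, 8 with APAP, 6 with MDA and 7 with TAA, and 1, 0, 2 and 0 rose. The shares of all genes that fell were 27.2% with CCl4, 33.7% with ConA, 27.5% with GAL, 14.5% with ANIT, 15.3% with APAP, 17.1% with MDA and 24.5% with TAA. The shares that rose were 26.2%, 34.3%, 25.1%, 13.5%, 18.1%, 17.2% and 25.2% in that order. Cyp2e1 fell with CCl4 (-3.57 ± 0.16) and was not called with ConA. Cyp1a2, a pericentral cytochrome, fell with ConA (-3.07 ± 0.23), APAP (-2.31 ± 0.57) and GAL (-2.18 ± 0.28), each wholly below the vehicles, and with TAA (-0.96 ± 0.21) and CCl4 (-0.44 ± 0.14). Slc22a3, an organic cation transporter, fell with APAP (-4.15 ± 0.37) and CCl4 (-4.47 ± 0.36). Cyp2a5 rose with ANIT (2.68 ± 0.16) and MDA (2.86 ± 0.20) and fell with ConA (-2.39 ± 0.29). Of 10 periportal genes, 10 fell with CCl4, 9 fell and 1 rose with GAL, and 5 fell and 3 rose with ConA (medians -1.77, -3.03 and -0.75). The 3 of 10 that rose with ConA are close to the share of all genes that rose. With ANIT 2 fell and 2 rose, with APAP 5 and 1, with MDA 4 and 2, and with TAA 7 and 2. Those that fell included Pck1, the gluconeogenic carboxykinase, with GAL (-4.24 ± 0.57), and the urea cycle enzyme Ass1 (-3.39 ± 0.28). Cyp2f2, a periportal cytochrome, fell with all 7 compounds, with log2 fold changes of -2.03 for CCl4 and -1.55 for ConA. All 6 hepatocyte markers fell with CCl4 and with GAL (medians -1.52 and -1.53), summing to 19171 to 29179 and 25735 to 32563 CPM. Their part in the member results was not tested.

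Other feedback and target genes of the pathway fell in some cases and rose in others. Of 10 listed, 8 were tested against all vehicles. With ConA 4 fell and 2 rose, with CCl4 3 and 3, with GAL 1 and 4, with TAA 3 and 4, with APAP 2 and 3, and with ANIT and MDA 4 and 1 each. Of all genes, 33.7% fell and 34.3% rose with ConA, 27.2% and 26.2% with CCl4, 27.5% and 25.1% with GAL, 24.5% and 25.2% with TAA, 15.3% and 18.1% with APAP, 14.5% and 13.5% with ANIT, and 17.1% and 17.2% with MDA. With 8 genes tested, the counts with ConA and CCl4 are near those shares, as is the 1 that rose with ANIT and with MDA. Notum, a secreted Wnt deacylase, fell with all 7 compounds (from -2.24 with GAL to -0.67 with MDA). Nkd1, a feedback inhibitor, fell with ConA (-2.25 ± 0.22), MDA (-1.08 ± 0.18), CCl4 (-0.76 ± 0.16) and TAA (-0.65 ± 0.26). Myc, also induced by many other signals, rose with all 7 compounds, from 1.93 with ANIT to 5.52 with ConA. Among 13 genes of the destruction complex and nuclear effectors, 0 were called with APAP against all vehicles, beside 33.4% of genes called. With ConA 3 fell, among them Ctnnb1, which encodes beta-catenin (-0.91 ± 0.13, adjusted p = 6.87e-07), and 3 rose. Axin1, the constitutive paralogue of Axin2, rose with CCl4 (1.39 ± 0.09), ConA (0.77 ± 0.09) and GAL (0.68 ± 0.10). Of the receptors and secreted inhibitors, 11 of 12 were tested with CCl4, GAL and ConA. With CCl4 7 fell and 0 rose, with Fzd8 at -1.86 ± 0.23. With ConA 1 fell and 5 rose, with Fzd5 at 1.90 ± 0.18, and with GAL 5 fell and 2 rose. Both named genes encode Frizzled receptors.

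The genes whose 7 fold changes against all vehicles lay nearest to each member were found among 13459 genes tested in every comparison, with the other members left out. Nearest to Glul were its own pseudogene Glns-ps1 (root mean square difference 0.49) and Cyp2c69 (0.54), against a median of 2.30 over all genes. For Slc1a2, whose distance to the member Rhbg was 0.42, they were Mup-ps16 (0.67) and the listed pericentral gene Slc22a3 (0.69). Outside the members, Rhbg lay nearest to Acss3 and Gm38392 (0.60 each), and Oat to Serpinb1a (0.57) and Gm13773 (0.65). Axin2 was nearest to Asb2 (0.43) and Irs1 (0.44), Rnf43 to Fam53b (0.25) and Dnhd1 (0.26), and Znrf3 to Xpnpep3 (0.11) and Zfp638 (0.16), where the median over all genes was 0.88. Tbx3 was nearest to Pm20d1 (0.47) and Npr2 (0.48), and Lgr5 to Gm41231 (0.52) and Cyp7a1 (0.72). Nothing came closer to Tbx3os1 than Cyp7a1, the rate-limiting enzyme of bile acid synthesis, at 1.15. These distances describe 7 comparisons that share controls.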

How the data were processed

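Estimated counts per gene, deposited as 1 table for 57 livers, were made by the authors with Salmon 1.6.0 and R 4.1.3 on build GRCm39, per the submitters' processing notes. The annotation, any length correction and the use of strand are not given in the sources used here. Of 54307 identifiers, 51482 matched GENCODE M21 symbols. Counts were rounded and tested in edgeR 4.0.16 (R 4.3.3; quasi-likelihood, TMM, filterByExpr, Benjamini-Hochberg over all genes tested), each compound with its control group or with all 17 vehicles. Standard errors are the log2 fold change divided by the square root of the F statistic. The test was tried on simulated counts. Alternatives were DESeq2 1.42.0, limma 3.58.1 on log2(CPM + 1), other filters and scalings, 1 fit over 57 mice, subsets by replicate number, a replicate block and leaving out each mouse. Replicate numbers have no stated meaning, so p-values measure the spread between mice. Named genes were the 10 members, 6 always reported (Cyp2e1, Cyp1a2, Cyp2f2, Wnt2, Wnt9b, Rspo3), from each list up to 4 with the largest changes beyond all route vehicles, and 2 nearest genes per member. List genes of that rule not described above had the following log2 fold changes against the route vehicle. With GAL Hal was at -4.06 and Sds at -3.33, and with APAP Cyp2c29 at -3.05. With ConA Rgn was at -3.01, Sfrp1 at 2.80, Tnfrsf19 at -2.00 and Fzd6 at 1.36. With CCl4 Bcl9 was at -1.35 and Tcf7l2 at -0.99. Alb was named after its values were seen. The ConA contrasts with their alternatives, GAL without mouse 2 at the library total, leaving out mice in groups of 6 or 7 and against all vehicles, and the block for saline and gavage pairs were chosen after seeing the data. The members, lists and rules were chosen with earlier results of these data known. Promoters came from RefSeq on GRCm38.p6.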

Additional observations from a re-analysis of the deposited data

Results flagged for a closer look

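Of 70 gene and compound groups of 4 to 7 mice, 15 held a highest or lowest mouse whose gap to the next, on log2(CPM + 1), exceeded Dixon's 95% critical value, where chance gives about 1 in 20.

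For Glul, ANIT mouse 1 was at 38.4 CPM (others 300.1 to 395), APAP mouse 1 at 1024 (24.9 to 53.6), MDA mouse 1 at 437 (30.3 to 85.1) and ConA mouse 12 at 232 (559.95 to 954). APAP mouse 1 was also high for Slc1a2 at 14.6 CPM (0.0288 to 1.83), Rhbg at 3.03 (0 to 0.671) and Tbx3os1 at 1.13 (0 to 0.265). MDA mouse 1 was high for Tbx3 at 9.8 CPM (1.49 to 3.62), Tbx3os1 at 1.3 (0 to 0.385) and Axin2 at 3.22 (1.05 to 1.62). CCl4 mouse 1 was high for Tbx3os1 at 2.53 CPM (0.235 to 0.888) and Axin2 at 4.39 (2.14 to 2.92), and low for Znrf3 at 1.64 (2.48 to 3.3). The others were TAA mouse 6 for Lgr5 at 0.663 CPM (0.0795 to 0.191) and GAL mouse 7 for Axin2 at 3.03 (4.66 to 4.78).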

How the results depend on the processing

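Among 1155 alternative values of the members other than those leaving out a mouse, 1005 kept direction and side of the threshold, 111 lost the call, 36 gained one and 3 reversed. The 3 are Rhbg in ConA less GAL livers at the library total, -0.088, and Glul with ConA at the library total, -0.147 against CIV and -0.1604 against all vehicles, where the median of all genes stood at -0.56 and -0.61 (-1.34 for ConA less GAL). Without 1 mouse, 1095 of 1197 kept both. These values leave out members that were not called and changed by under 0.5 (log2). Among 231 such values 9 gained a call, 6 of them at the library total (Oat, Slc1a2 and Rhbg with ConA, Rnf43 with GAL, and Axin2 with GAL against either control), and without 1 mouse 2 of 157 did. The library total moved the median of all genes by over 0.1 with ANIT, APAP, CCl4, GAL and ConA, for example to 0.83 with GAL against all vehicles.

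Where counts of members called moved by over 1.5 times, the cause was not tested unless fewer genes or mice entered. At a mean of at least 5 CPM, which tests fewer genes, they were 5 (APAP), 5 (TAA), 4 (CCl4) and 0 (ConA) against the route vehicle and 5 (APAP), 6 (CCl4) and 2 (ConA) against all. In mice numbered 1 to 4 they were 2 (APAP), 5 (MDA) and 4 (TAA), beside 824, 1292 and 2689 of all genes called. No saline mouse has such a number, so the 2 choices of control are the same test there. For GAL against all vehicles the count was 2, beside 4463 genes. GAL against CIP, 3 in the report, gave 6 by DESeq2, 5 by limma, 1 with the number range as a covariate and 5 in mice above 4. MDA against TAA gave 1 at the library total, and APAP against MDA and against TAA 1 each with no filter. Glul was called with 5 compounds against route vehicles at the library total, by DESeq2 and by limma, and Slc1a2 with 2 in 1 fit over 57 mice against either control. Znrf3 was called with 2 at the library total, 1 by DESeq2, 1 by limma and 2 in the 57-mouse fit. The difference of ConA less GAL changes from saline, 3 in the report, gave 6 at the library total and 5 by DESeq2.

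Leaving out 1 mouse gave 1 (CIP 7 or 8) to 7 (GAL 2) calls for GAL and 2 (CIV 7) to 5 for ConA against route vehicles. It gave 1 (ANIT 2) to 5 (APAP 1) for ANIT against APAP, 2 to 5 (APAP 1) for any gavage difference, 1 to 3 (APAP 1) for APAP against MDA, and 1 to 6 (APAP 1) for APAP against TAA. For the changes from saline it gave 1 to 5 for ConA less CCl4 and 1 to 4 for ConA less GAL, and in direct comparison 8 to 8 and 7 to 9.

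Replicate numbers were not treated as pairs in the main tests. No comparison with 3 or more pairs had every correlation over 0.1 (TAA and Ctrl, 0.0074 to 0.274, had 3 of 4). With 3 to 7 pairs these correlations cannot exclude pairing by number. Own numbers correlated best for 3 of 4 pairs with APAP and with TAA and for 1 of 7 with MDA. With a replicate block APAP had 2 calls against Ctrl, and with the 2 groups alone ANIT against APAP, APAP against MDA and APAP against TAA had 0, 0 and 0, and MDA against TAA 1. Over all genes the block left 230 called for APAP against Ctrl. For the pairs, in the same order, it left 0, 0, 0 and 1424 genes, so the 0 counts are not particular to the members. No paired analysis was possible because only 1 number was shared for CCl4 and ConA with their route vehicles and for CCl4 with GAL. Genes at few estimated counts, such as Lgr5 in ConA livers, are limited by depth.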
